A study of Rattus norvegicus with 6 samples.

Results

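Transcripts of 10 genes of corticosteroid and sex steroid handling were examined in colon tissue from S.LEW congenic rats (n = 3, named C1 to C3) and Dahl salt-sensitive (S) rats (n = 3, named S1 to S3). The genes encode the steroid dehydrogenases Hsd3b5, Hsd11b1, Hsd11b2, Hsd17b2, Hsd17b4 and Hsd17b11, the glucocorticoid receptor Nr3c1, the mineralocorticoid receptor Nr3c2, and Tsc22d3 and Fkbp5, both of which glucocorticoids are known to induce. They were found as every probe whose accession belongs to one of these genes, which gave 13 of the 30367 probes on the array, and they are 10 of the 15168 genes that could be named. The list was drawn up with the strain difference on these same arrays known, so that difference is described here and not tested.

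All 6 rats were male, were given the colon carcinogen azoxymethane (AOM) at 15 mg per kg in 2 weekly injections that began at an age of 6 weeks, ate a diet with 0.3% NaCl and gave their colons at 30 weeks of age. The S rat is an inbred strain whose blood pressure rises with dietary salt, and the congenic strain, S.LEW(10)x12x2x3x5, carries a short segment of the Lewis (LEW) genome on the S background. Both groups therefore share the carcinogen, and no rat without AOM was analysed here. RNA came from colon tissue, in which fewer cells of a type and less RNA per cell cannot be told apart, and each rat was read on 1 single-color Agilent array. The labels call the colons tumor-induced and do not say whether tumors were in the tissue taken. The study counted more colon tumors in the congenic strain, and the part of tumors in the values below was not tested. In the GRCr8 assembly none of the 10 genes lies on chromosome 10, which carries the LEW segment.

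Corticosteroids act in the colon through a pair of receptors. The mineralocorticoid receptor binds aldosterone and the main glucocorticoid of the rat, corticosterone, about equally well, and the enzyme made by Hsd11b2 keeps it open to aldosterone by converting corticosterone into its inactive keto form. The enzyme made by Hsd11b1 works mostly in the opposite direction and regenerates the active hormone. In the distal colon aldosterone drives the uptake of sodium by surface epithelial cells, and Hsd11b2 and Nr3c2 are known markers of such aldosterone-responsive epithelium.

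Values are the deposited quantile-normalized log2 signals, in which 1 unit is a 2-fold change. A probe counted as well above background on an array where the scanner software marked most of its spots so. Of the 13 probes, 12 are in the deposited table of 23997 probes and cover all 10 genes, and 11 were well above background on all 6 arrays. The share of spots well above background ran from 73.8% to 87.6% over the arrays, and no spot was saturated. Among the arrays of the S rats, S1 and S3 were alike, with a correlation of 0.980, and S2 stood apart from both. The correlation of S2 was 0.967 to 0.976 with the congenic arrays, lower with S3 (0.937) and lowest with S1 (0.900). By the cut-offs given next, 776 probes were higher in the congenic strain and 562 lower when all rats were used, and 2397 and 1725 without S2. Across all probes limma gave no adjusted p (Benjamini-Hochberg) under 0.05 and 3115 probes with an unadjusted p under 0.05, and the methods' t-test gave none and 2594. A probe is counted as called where the unadjusted p of limma was under 0.05 and the change at least 2-fold, the cut-offs of the study. No statement below rests on an adjusted p under 0.05. Nothing in the labels ties the rats to litters or cages, though the study housed an S rat and a congenic rat together in each cage. The p values set the strain difference against the spread between these rats, which limma adjusts by the spread over all probes.

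In the plot of signal by rat, most of the dehydrogenases and the mineralocorticoid receptor lay higher in the congenic rats. Every congenic rat was above every S rat at 7 of the 12 probes, those of Hsd3b5, Hsd11b2, Hsd17b2, Hsd17b4, Hsd17b11 and both of Nr3c2, where 12.4% of all probes had that order. Tsc22d3 was the 1 probe with every congenic rat below every S rat, an order seen at 5.33% of all probes. The strains overlapped for Hsd11b1, Fkbp5 and both probes of Nr3c1. At the 2-fold cut-offs 4 of the 12 probes were called higher, 1 each of Hsd3b5, Hsd11b2, Hsd17b2 and Nr3c2, against 3.23% of all probes, and none was called lower, against 2.34%. Of all calls 58.0% were higher with the deposited values, but 47.8% with scaling to the 75th percentile and 48.8% with normexp. The median log2 difference over the 12 probes was 0.46, and over all probes it was 0.01. As the genes were chosen on this contrast, these counts carry no weight of their own.

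**Figure D1:**
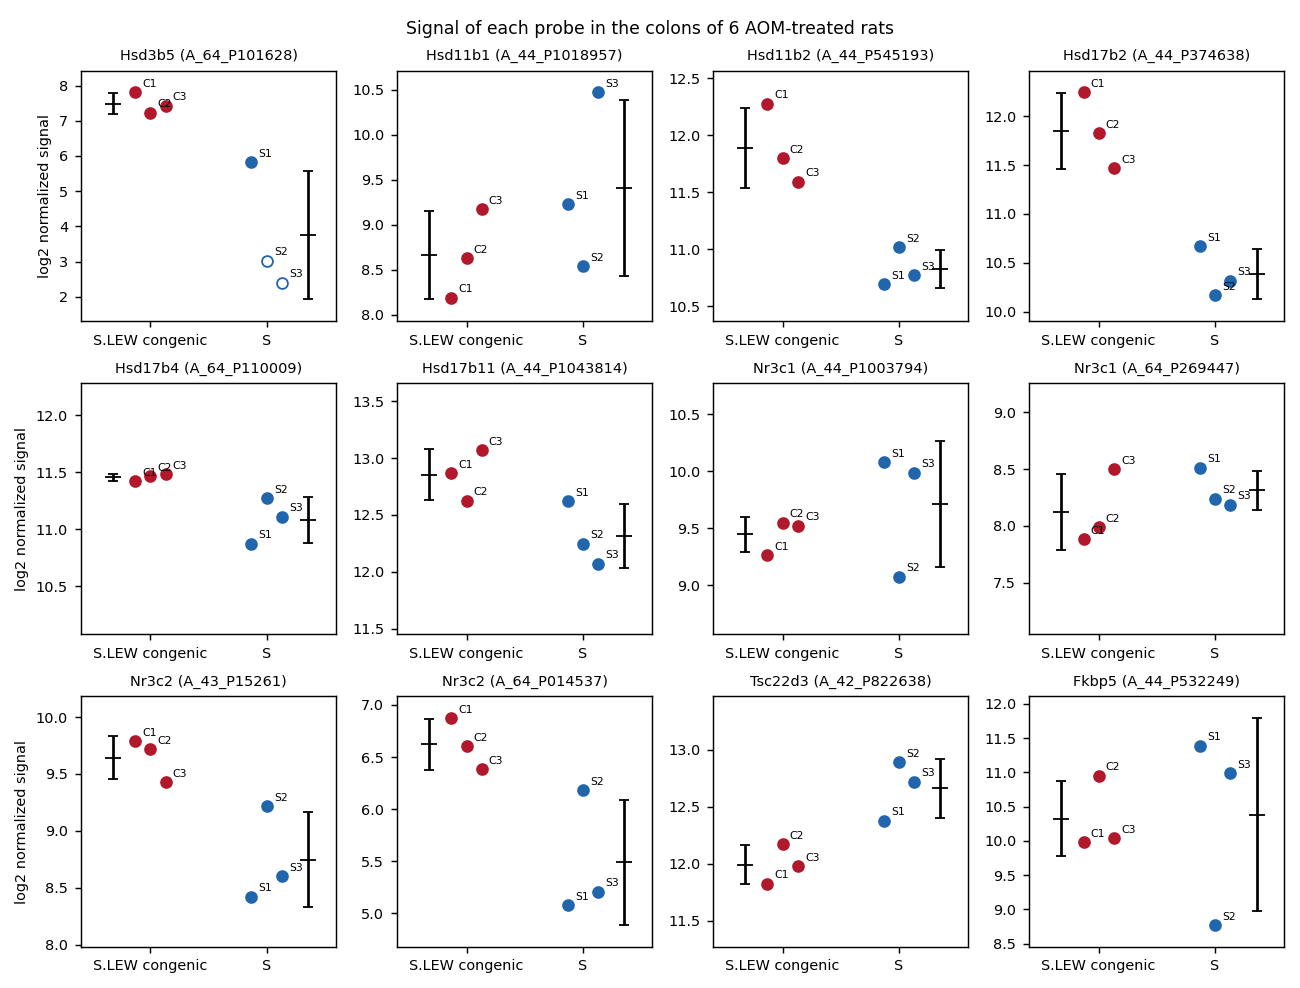
Each panel plots the log2 normalized signal of 1 probe (y axis, its own range) in the 3 S.LEW congenic rats (red) and the 3 S rats (blue). Filled points were well above background and open points were not, and black bars give the mean ± SD of a strain (n = 3). For Hsd11b2 the congenic rats lie between 11.59 and 12.28 and the S rats between 10.69 and 11.02.

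Hsd11b2, which inactivates corticosterone in aldosterone-responsive cells, had a log2 signal of 12.28 in C1, 11.80 in C2 and 11.59 in C3, against 10.69 in S1, 11.02 in S2 and 10.77 in S3. The lowest congenic rat stood above the highest S rat, and the S rats lay closer together than the congenic rats. The means were 11.89 ± 0.35 (SD, n = 3) and 10.83 ± 0.17 (SD, n = 3), a log2 difference of 1.06 (standard error 0.24), or 2.09-fold. This is just inside the 2-fold limit. Without C1 and without S1 the difference was 0.87 and 0.997, and neither was called.

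Hsd11b1, which regenerates the active hormone, went the other way in its mean but not rat by rat. It gave log2 signals of 8.19 in C1, 8.63 in C2 and 9.18 in C3, with 9.23 in S1, 8.54 in S2 and 10.47 in S3. S3 stood apart at the top, and S2 lay among the congenic rats. The log2 difference was -0.75 (standard error 0.52), smaller than the SD of the S rats of 0.98. It moved to -0.22 without S3 and to -1.18 without S2, and only without S2 was the probe called lower.

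Set against each other within a rat, a measure that compares change and not the levels of these genes, the log2 signal of Hsd11b2 exceeded that of Hsd11b1 by 4.09 in C1, 3.17 in C2 and 2.42 in C3. In the S rats the excess was smaller in S1 (1.46) and S3 (0.30) and 2.48 in S2. The means differed by 1.81, with SDs of 0.84 and 1.09 (n = 3 each), and the strains met at S2, which was just above C3.

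Nr3c2, the receptor that Hsd11b2 protects, was read by a pair of probes that put the 6 rats in the same order. The brighter gave 9.79 in C1, 9.72 in C2 and 9.43 in C3, against 8.42 in S1, 9.22 in S2 and 8.60 in S3. The dimmer gave 6.87, 6.61 and 6.39 in the congenic rats in that order, against 5.08 in S1, 6.18 in S2 and 5.21 in S3. On both probes the congenic rats were all higher, and S2 stood closer to them than to S1 and S3. The log2 difference was 0.90 (standard error 0.26), or 1.86-fold, on the brighter probe and 1.13 (standard error 0.33), or 2.19-fold, on the dimmer, so that the brighter fell just outside the 2-fold limit and the dimmer just inside. Without S2 they were 1.13 and 1.48, and both probes were called higher. The brighter was also called without C3 and with the slide as a block (1.04). The dimmer probe gave 0.93 without S1, 0.99 without S3 and 0.51 with normexp, and was called in none of these.

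Nr3c1, the glucocorticoid receptor, did not separate the strains on either of its probes. The brighter gave 9.26 in C1, 9.55 in C2 and 9.52 in C3, with 10.08 in S1, 9.07 in S2 and 9.99 in S3. S1 and S3 were the highest rats and S2 the lowest. The log2 difference was -0.27 (standard error 0.31) on this probe and -0.19 (standard error 0.23) on the dimmer, where the rats ranged from 7.88 (C1) to 8.51 (S1). Whichever rat was omitted, it stayed between -0.59 and -0.09 and between -0.38 and -0.07.

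On the brighter probes the log2 signal of Nr3c2 minus that of Nr3c1 within a rat came to 0.52 for C1, 0.17 for C2 and -0.09 for C3. In the S strain it stood at -1.66 for S1, 0.14 for S2 and -1.39 for S3. S1 and S3 stood below every other rat, and S2 lay inside the range of the congenic rats. The strain means differed by 1.17, and by 1.09 to 1.40 over the other pairings of the probes of these genes.

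**Figure D2:**
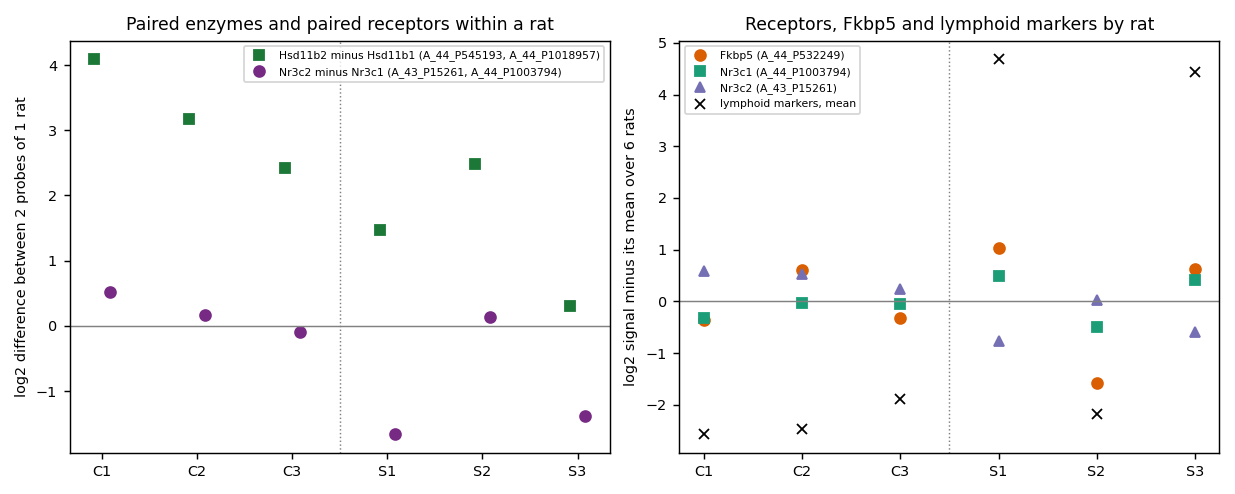
Left, the log2 difference between a pair of probes of the same rat (y axis) for Hsd11b2 minus Hsd11b1 (squares) and Nr3c2 minus Nr3c1 (circles) in each rat (x axis). Right, log2 signal minus its mean over the 6 rats for Fkbp5, Nr3c1, Nr3c2 and the mean of the lymphoid markers. The lymphoid mean is high in S1 and S3 alone, and Fkbp5 and Nr3c1 are lowest in S2.

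Tsc22d3, which encodes the glucocorticoid-induced leucine zipper GILZ, was the gene of the set that was lower in every congenic rat. It gave log2 signals of 11.82 in C1, 12.17 in C2 and 11.98 in C3, against 12.38 in S1, 12.89 in S2 and 12.72 in S3. C2, the highest congenic rat, lay below S1, the lowest S rat. The log2 difference was -0.67 (standard error 0.21), or 1.59-fold, and it stayed between -0.81 and -0.56 whichever rat was omitted.

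Fkbp5, a co-chaperone that lowers the affinity of the glucocorticoid receptor for its hormone and is itself induced through it, did not follow Tsc22d3. It gave 9.98 in C1, 10.95 in C2 and 10.04 in C3, with 11.39 in S1, 8.77 in S2 and 10.98 in S3. The S rats spanned 2.62 units, with S2 below and S1 and S3 above all congenic rats. The log2 difference was -0.06 (standard error 0.71). It changed sign with the rats used, from -0.86 without S2 to 0.45 without S1.

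Lymphoid genes moved with the split of the S rats. Of 10 lymphoid markers such as Cd3e and Lck, 8 had a probe, and their mean log2 signal was 11.90 in S1 and 11.65 in S3 but 5.04 in S2 and between 4.65 and 5.32 in the congenic rats. All 8 were well above background in S1 and S3 and 4 of them in each of the other rats. The lymphoid markers and Fkbp5, Nr3c1 (brighter probe) and Nr3c2 thus set S1 and S3 apart from S2, and the part of lymphoid tissue in these values was not tested. S2 and the congenic rats had about the same lymphoid signal. Against the congenic mean, Fkbp5 was 1.55 lower in S2 on the log2 scale and Tsc22d3 0.90 higher. The brighter probe of Nr3c2 was 0.43 lower and the dimmer 0.44 lower. For Nr3c1 the brighter probe was 0.37 lower and the dimmer 0.12 higher. This sets 1 S rat against the congenic rats and does not measure a strain difference.

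Hsd17b2, which oxidizes estradiol and testosterone to weaker steroids and is abundant in surface epithelium of the gut, had a log2 signal of 12.24 in C1, 11.83 in C2 and 11.47 in C3, against 10.67 in S1, 10.17 in S2 and 10.32 in S3. No S rat came near the congenic range. The means were 11.85 ± 0.39 (SD, n = 3) and 10.38 ± 0.26 (SD, n = 3), and the log2 difference was 1.46 (standard error 0.26), or 2.75-fold. It stayed between 1.26 and 1.65 whichever rat was omitted and was called higher each time.

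Hsd17b4 and Hsd17b11 showed smaller differences in the same direction. Hsd17b4, the multifunctional enzyme of peroxisomal fatty acid oxidation, gave 11.42 in C1, 11.46 in C2 and 11.48 in C3, against 10.87 in S1, 11.27 in S2 and 11.11 in S3, which made a log2 difference of 0.37 (standard error 0.18). The congenic rats were nearly equal. Hsd17b11, a dehydrogenase of lipid droplets, gave 12.87 in C1, 12.63 in C2 and 13.07 in C3, against 12.62 in S1, 12.25 in S2 and 12.07 in S3, which made a log2 difference of 0.54 (standard error 0.22). C2 and S1 differed by less than 0.01 there, so the order of the strains hung on a gap smaller than the spread of either.

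Hsd3b5 had the largest log2 difference of the 12 probes and was the one probe among them not well above background on every array. It belongs to the Hsd3b family, close copies of one another whose enzymes convert or reduce steroids in the adrenal gland, gonads and liver. The probe A_64_P101628 gave 7.81 in C1, 7.23 in C2 and 7.43 in C3, against 5.82 in S1, 3.02 in S2 and 2.41 in S3. All congenic rats were higher, but of the S rats S1 alone was well above background, and S1 stood apart from S2 and S3. The log2 difference was 3.74 (standard error 0.86), or 13.4-fold, with 4.77 without S1 and 3.07 without S3. With S1 left out, none of the remaining S arrays cleared background. Signal in the congenic rats was then 13.1-fold higher with each S array set at its dimmest probe that still cleared background. This is not a strict lower limit, as a probe can read above that level and still fail to clear background. With normexp background correction on the median signal, which compresses dim signals, the difference was 1.64 (standard error 0.28). The other probe of the same accession, A_64_P006423, failed to clear background on all 6 arrays, so the pair did not give the same reading of this transcript.

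Sources of a steroidogenic or liver gene outside the colon wall were looked at through their markers. Of 8 hepatocyte markers 5, among them albumin (Alb), were not well above background on any array, and the mean log2 signal of the list was 4.31 to 4.66 in the congenic rats and 4.27 to 4.50 in the S rats. Of 6 adrenal cortex markers Mc2r, the receptor for adrenocorticotropin, failed to clear background on all 6 arrays. All but Mc2r are also in a pathway list. Cyp21a1, named here after its values were seen, was well above background on all 6 arrays, and Cyp11a1 was called higher. In each congenic rat 1 to 3 of the 6 markers cleared background, and in each S rat 3 to 5. The mean of the list stood at 5.11 to 5.50 in the congenic rats and 5.07 to 5.43 in the S rats.

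**Figure D3:**
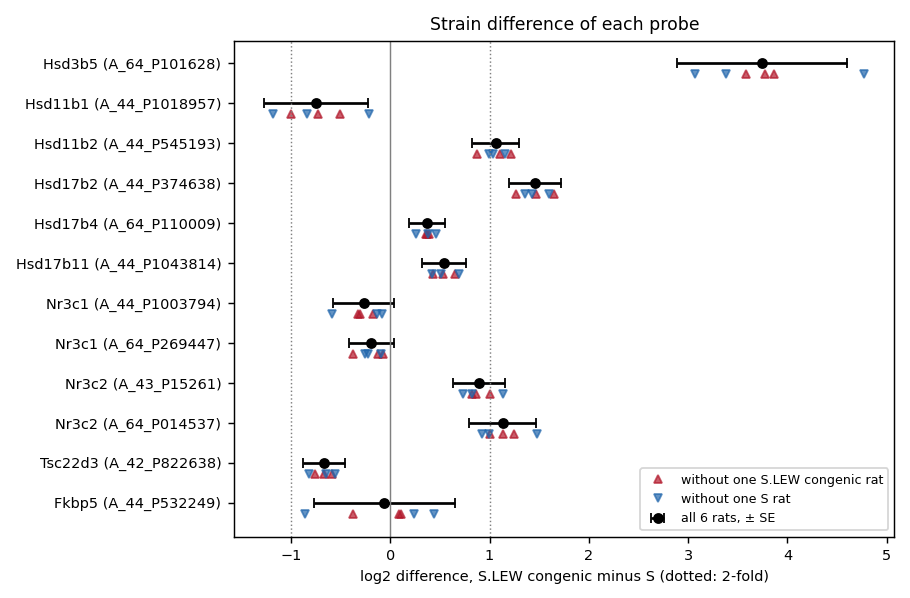
Log2 difference between the strains (x axis, S.LEW congenic minus S) for each of the 12 probes (y axis), with the standard error of the limma fit as bars. Triangles give the difference without 1 congenic rat (up) or 1 S rat (down), and dotted lines mark a 2-fold change. The values of Hsd17b2 run from 1.26 to 1.65, and those of Fkbp5 lie on both sides of 0.

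Markers of other cells were read in the same rats. The mean of 10 surface colonocyte markers such as Slc26a3 and Krt20 was 11.48 to 12.13 in the congenic rats and 11.30 to 11.41 in the S rats, and 9 or 10 of them were well above background in each rat. The 6 adipocyte markers with a probe stood at 7.34 to 7.84 and 6.51 to 6.80, and those of skeletal muscle at 6.54 to 7.04 and 7.55 to 8.88. In none of these lists did the ranges of the strains overlap. Smooth muscle markers ran from 16.04 to 16.24 in the congenic rats and stood at 14.12 in S1, 16.33 in S2 and 15.14 in S3, so they too set S2 beside the congenic rats. Macrophage markers ran from 6.74 to 7.42 and from 6.61 to 7.49, and fibroblast markers from 11.44 to 12.20 and from 10.87 to 12.08. The part of these cells in the steroid gene values was not tested.

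Slides were inferred from shared scan times in the file headers, which fell into 2 groups. C1 and the 3 S rats were taken as slide 1 and C2 and C3 as slide 2. Slide 1 alone thus held both strains, with C1 as its congenic rat. Within slide 1 the log2 difference was 1.45 for Hsd11b2, 1.86 for Hsd17b2, 4.06 for Hsd3b5, 1.04 and 1.38 for the probes of Nr3c2, -0.84 for Tsc22d3, -1.22 for Hsd11b1 and -0.40 for Fkbp5. A fit with the slide as a block gives these same values. Each kept the direction of the comparison over all rats, which holds these same arrays. At all these probes but Hsd11b1 and Fkbp5 the strains did not overlap, so the direction there was fixed in advance.

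The other genes of the pathway were read from 6 lists of 96 genes, of which 81 had a tested probe. With the brightest probe of each gene, limma called 8 higher and 1 lower, where 3.79% of all 12418 genes were called higher and 2.62% lower. Every congenic rat was above every S rat for 20 of the 81 genes and below for 3, against 14.2% and 5.01% of all genes. The lists were chosen with earlier results of these data known, so these counts carry no weight of their own. Among other hydroxysteroid dehydrogenases 2 of 16 tested genes were called higher and none lower, with a median log2 difference of 0.24 against 0.03 over all genes. Hsd3b2, a further copy of the Hsd3b family, gave 11.75 in C1, 11.25 in C2 and 12.03 in C3, against 10.76 in S1, 6.72 in S2 and 6.35 in S3. Like Hsd3b5 it set S1 apart from S2 and S3. Its log2 difference was 3.73 (limma, standard error 1.14 and adjusted p = 0.320), with 5.14 without S1, 2.94 without S3 and 3.12, no longer called, without S2. It was also not called with the slide as a block (3.81) or by the methods' t-test. Hsd17b6, which acts on androgens and retinoids, was well above background on all arrays and had a log2 difference of 2.74 (limma, standard error 0.60 and adjusted p = 0.240), with 3.39 without S1 and 1.77 with normexp, and was called in both.

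Of 16 tested genes for steroid synthesis, reduction and cofactor supply, 2 were called higher and none lower, and the median was 0.20. Srd5a1, the reductase that makes dihydrotestosterone, gave 9.69 in C1, 9.54 in C2 and 9.68 in C3, against 8.23 in S1, 7.72 in S2 and 7.30 in S3. Its log2 difference of 1.89 (limma, standard error 0.27 and adjusted p = 0.194) kept its call in every fit with 1 rat left out. Cyp11a1, which starts steroid synthesis from cholesterol, had one of 2.27 (limma, standard error 0.85 and adjusted p = 0.36), with 2 of 3 congenic arrays and 1 of 3 S arrays well above background, and it was called without C2 or without S1 but not without any other rat. Without S1 it was 3.27, and with all rats the strains overlapped, as S1 (6.01) lay above C2 (5.75). It was not called either with the slide as a block (2.16), with normexp (0.68) or by the methods' t-test.

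Among 9 tested genes that aldosterone is known to act on in the distal colon, 2 were called higher and none lower, and the median was 0.63. Atp1b1, which encodes a subunit of the sodium pump, had a log2 difference of 1.01 (limma, standard error 0.33 and adjusted p = 0.336), just inside the 2-fold limit, and was not called without C1, C2 or S1 or by the methods' t-test. The subunits of the epithelial sodium channel, named here after their values were seen, did not pass the test. Their log2 differences were -0.15 for Scnn1a, -0.50 for Scnn1b and 0.40 for Scnn1g. Scnn1a was well above background on all 6 arrays. Scnn1b and Scnn1g were so on 1 of 3 congenic arrays, C1, and on 3 of 3 S arrays, so their differences are uncertain. Atp12a, the colonic potassium pump, also named after its values were seen, was outside the tested table and was well above background in S2 and S3 alone, at scanner-derived log2 signals of 7.22 and 7.79.

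Of 21 tested glucocorticoid response genes, 1 was called higher, 1 lower and 19 neither, and the median was 0.06. Bcl6, a repressor of transcription that also marks germinal centre B cells, gave 8.44 in C1, 8.57 in C2 and 8.36 in C3, against 11.47 in S1, 9.59 in S2 and 11.03 in S3, which made a log2 difference of -2.24 (limma, standard error 0.48 and adjusted p = 0.231). S1 and S3, the rats with high lymphoid markers, were the highest. Zbtb16 had a log2 difference of 1.62 (limma, standard error 0.24 and adjusted p = 0.197), with 2 of 3 congenic arrays and 1 of 3 S arrays well above background, and it was 0.43 and not called with normexp. Per1 (-0.35), Sgk1 (-0.33), Klf9 (0.74) and Dusp1 (0.54), which glucocorticoids induce in many tissues, gave these log2 differences, did not pass the test, and were likewise named after their values were seen. None of 14 tested chaperones and coregulators of the receptors was called, and their median was -0.01. Of 5 tested receptors for other steroids and related ligands, Vdr, the vitamin D receptor, was called higher, with 1.23 (limma, standard error 0.40 and adjusted p = 0.333), though not without C1, S1 or S3 or by the methods' t-test.

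**Figure D4:**
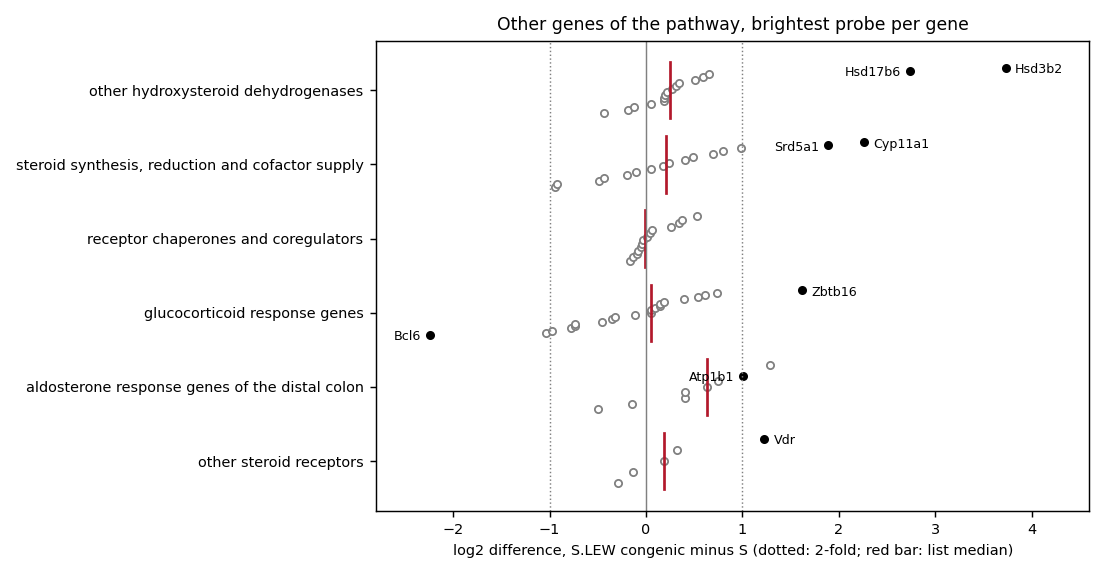
Log2 difference between the strains (x axis, S.LEW congenic minus S) for each tested gene of 6 lists (y axis), brightest probe per gene. Filled and named points passed an unadjusted p of limma under 0.05 with a 2-fold change, open points did not, red bars are list medians over all tested genes and dotted lines mark a 2-fold change. In the aldosterone list 1 gene is not drawn.

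Among all named genes outside the set, those whose signal over the 6 rats followed Hsd3b5 most closely were Car1, Hsd3b2 and Spmip11, at Euclidean distances of 0.67, 1.06 and 1.30 between log2 values centred on their mean over the 6 arrays. For Hsd11b2 they were Cpt1a, Coro2a and Ehhadh, at distances of 0.20, 0.21 and 0.23. Cpt1a, the carnitine palmitoyltransferase that admits fatty acids to mitochondria, gave 11.98 in C1, 11.53 in C2 and 11.29 in C3, against 10.51 in S1, 10.77 in S2 and 10.32 in S3. This is a description over 6 arrays that share slides and strains.

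Upstream sequences were matched for 5 of the 10 genes, Hsd17b4, Hsd17b11, Nr3c1 (2 starts), Tsc22d3 (3 starts) and Fkbp5, and for Hsd3b2, from RefSeq on GRCr8. Hsd3b5, Hsd11b1, Hsd11b2, Hsd17b2 and Nr3c2 had no entry. The 250 bases before each start were searched on both strands for the palindrome made of AGAACA, the spacer NNN and TGTTCT, the element that the glucocorticoid and mineralocorticoid receptors bind, for its arm AGAACA alone, and for the GC box GGGCGG. The palindrome contains the arm on each side. The palindrome was in none of these windows and in 0.012% of all 33469 promoters, the arm in 17.5% and the GC box in 30.5%. At these rates the absence of the palindrome or the arm from a few windows says little about these genes. Sequence beyond the 250 bases was not searched. The windows of Tsc22d3, Fkbp5, Nr3c1 and Hsd17b11 held no arm, that of Hsd17b4 held 2, at 206 and 141 bases before the start, and that of Hsd3b2 held 1, at 29. The following windows show the contrast between a gene with arms, a glucocorticoid-induced gene with GC boxes alone, and the other Hsd3b gene whose pattern over the rats was close to that of Hsd3b5, with arms and GC boxes in capitals.
Hsd17b4 (chr18:45515177-45515426, plus strand): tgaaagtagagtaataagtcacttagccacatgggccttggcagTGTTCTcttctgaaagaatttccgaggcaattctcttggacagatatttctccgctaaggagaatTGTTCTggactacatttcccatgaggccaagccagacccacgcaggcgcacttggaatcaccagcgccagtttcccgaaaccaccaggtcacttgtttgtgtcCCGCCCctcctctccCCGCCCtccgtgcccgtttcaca
Fkbp5 (chr20:6543556-6543805, minus strand): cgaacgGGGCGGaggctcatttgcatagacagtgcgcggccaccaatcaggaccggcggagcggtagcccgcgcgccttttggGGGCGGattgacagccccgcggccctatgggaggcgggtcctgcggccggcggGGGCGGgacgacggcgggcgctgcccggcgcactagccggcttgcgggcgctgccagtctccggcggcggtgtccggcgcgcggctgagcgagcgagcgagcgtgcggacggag
Hsd3b2 (chr2:188794070-188794319, minus strand): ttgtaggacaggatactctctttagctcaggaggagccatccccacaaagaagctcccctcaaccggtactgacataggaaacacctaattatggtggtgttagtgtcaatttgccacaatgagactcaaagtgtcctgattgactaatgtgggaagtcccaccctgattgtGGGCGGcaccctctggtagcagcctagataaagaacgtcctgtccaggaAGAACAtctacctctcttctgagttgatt
The Fkbp5 window was 76.0% G and C and held 3 GC boxes, that of Hsd17b4 52.4% with 2, and that of Hsd3b2 48.0% with 1. Aligned without gaps, the windows of Hsd3b1 and Hsd3b3 were identical at 249 of 250 positions, and those of Hsd3b2 and Hsd3b1 at 60 of 250. Which copies hybridize to the probes of Hsd3b5 and Hsd3b2 was not tested, and their values are uncertain in that respect.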

How the data were processed

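Colon RNA of 6 rats was hybridized to 1 single-color Agilent array each. The authors extracted intensity values with Agilent Feature Extraction (11.0.1.1 in the file headers), and deposited log2 values that were quantile-normalized in GeneSpring GX 12.1. The deposited log2 values matched the scanner intensity values after quantile normalization here, and served for the strain comparison. Of 30367 probes, 18005 were named by matching their accessions to RefSeq (GRCr8). The strain difference was fitted over all 23997 probes with limma 3.58.1 (R 4.3.3), with Benjamini-Hochberg adjustment, by code that was first checked on simulated data. Marker lists used scanner signals, quantile-normalized here, so that probes outside the deposited table counted. The genes and lists were chosen with earlier results of these data known. Named were all probes of the 10 genes, up to 3 called genes per pathway list and direction, and the 3 genes nearest to Hsd3b5 and to Hsd11b2. Other filters, normalizations, tests, blocks and the omission of each rat were tried. The number of arrays, 3 per strain, limits the precision. The values of 1 called pathway gene are not reported here.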

Additional observations from a re-analysis of the deposited data

How the results depend on the processing

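For the 12 probes of the steroid genes, 4 log2 differences moved by more than 1 SD of the rats under another scaling, background correction or block, and the t-test, the replicate block and the stricter filter cannot move them. They were Hsd3b5 (1.64) and the dimmer probe of Nr3c2 (0.51) with normexp, and Hsd11b2 (1.45) and Hsd17b2 (1.86) with the slide as a block. The normexp correction planned on the mean signal was not run, as the files used here hold the median signal, and normexp on the median signal was chosen after seeing the data. With the slide as a block the difference is that of C1 from the S rats, and C1 was the highest congenic rat for Hsd11b2 and Hsd17b2. Why C1 was higher, and the cause of the moves with normexp, were not tested.

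Over all probes 776 were called higher and 562 lower. The methods' t-test gave 515 and 178 and called 4 pathway genes higher instead of 8. Probes well above background on all 6 arrays, a set without Hsd3b5, gave 342 lower, the slide as a block 227 lower, and normexp 359 higher. With 1 rat left out the counts over all probes ran from 477 to 2397 higher and from 192 to 1725 lower, those of the steroid gene probes from 2 to 5 higher and from 0 to 1 lower, and those of the pathway genes from 5 to 11 higher and from 1 to 5 lower. The lowest count of steroid gene probes, 2, came without S1.

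Replicate numbers gave no sign of pairing the rats, as same-numbered rats deviated with correlations of -0.02, -0.13 and -0.06. Whether same-numbered rats shared a cage is not known. With the replicate block 794 probes were called higher and 744 lower, 4 and 0 of the steroid gene probes, and 9 and 1 of the pathway genes. Dim probes, Hsd3b5 above all, limit what the arrays can show.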
